A study of Mus musculus with 4 samples.

Results

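The collagens other than type IV were followed in mouse podocytes treated with interleukin-12 (IL-12) and in control podocytes given saline. The genes were chosen by name and biotype, as every protein-coding gene of the deposited count table whose symbol has the form of a collagen chain, with the type IV chains left out. This gave 38 of the 54532 genes in the table, of which 22046 are protein-coding. Podocytes are the epithelial cells that cover the outside of the glomerular capillaries of the kidney and lay down, with the endothelium, the basement membrane between them. The cells were of the MPC5 line, a single conditionally immortalized mouse podocyte line, so both groups share 1 genetic background. According to the methods of the study, the line was expanded with IFN-γ on dishes coated with type I collagen and was then moved to a medium without IFN-γ for differentiation. The IL-12 group received IL-12 at 400 ng/ml over 6 h before RNA was taken, and the control group received saline. Total RNA was sequenced from 2 libraries in each group.

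Each library held between 18355379 and 20098012 reads counted on genes, and 3 counts, the limit that a count of 0 allows, correspond to 0.149 to 0.163 CPM (counts scaled to the same library total), which covers counting error only. Nothing in the sources says that the 2 libraries of each group are from separate cultures, so the p-values measure only the spread between these libraries, which may be technical. Of the 14 podocyte markers examined, several that define the mature cell were at or near 0. Nphs1 (nephrin) had 0 or 1 count in each library, Wt1 had 4 to 16 counts, and Tcf21 and Ptpro were at 0. By contrast, Synpo (synaptopodin) had 5552 to 9269 counts and was among the 8 markers of the list that passed the filter given below. With 2 against 2 libraries, the smallest p of a two-sided exact permutation test is 0.33. Differences were therefore tested with edgeR's quasi-likelihood test over the 14095 genes that passed a filter on low counts, and a gene was called when its Benjamini-Hochberg adjusted p was below 0.05.

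Collagens are proteins of 3 polypeptide chains wound into a triple helix. The chains are folded and hydroxylated in the endoplasmic reticulum, secreted as procollagens and assembled outside the cell. Fibrillar collagens (types I, II, III, V, XI, XXIV and XXVII) form the fibrils of connective tissue, and the fibril-associated collagens (such as types IX, XII and XVI) bind to the surface of these fibrils. Type VI forms beaded filaments, types VIII and X form networks of short chains, type VII forms anchoring fibrils beneath epithelia, types XV and XVIII (the multiplexins) carry glycosaminoglycan chains and lie in or near basement membranes, and types XIII, XVII, XXIII and XXV span the cell membrane. In the healthy glomerulus the basement membrane is built mainly on type IV collagen, and fibrillar collagens accumulate in scarred glomeruli.

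Before the values, the DNA around the start sites of 5 members is shown, 4 of which rose after IL-12 and 1 of which fell. The sequences are from RefSeq (GRCm38.p6) and run from 250 bases before to 50 bases after the annotated start, 5′ to 3′ on the strand of the gene. Of the 16 members tested, 11 have such a window. Capitals mark a match, on either strand, to 1 of 6 short motifs: the TATA box (TATAAA), the CCAAT box (CCAAT), the GC box (GGGCGG), the AP-1 motif (TGANTCA), the core SMAD motif (CAGAC) and the TEAD motif (GGAATG). No 2 of the matches shown overlap. Of all 32851 RefSeq windows of this length, 13.6% hold the TATA box, 37.4% the CCAAT box, 35.7% the GC box, 7.81% the AP-1 motif, 49.6% the SMAD motif and 14.7% the TEAD motif.
Col27a1, chr4:63215162-63215461, plus strand, with GC boxes at -85 and 44 and a SMAD motif at -205: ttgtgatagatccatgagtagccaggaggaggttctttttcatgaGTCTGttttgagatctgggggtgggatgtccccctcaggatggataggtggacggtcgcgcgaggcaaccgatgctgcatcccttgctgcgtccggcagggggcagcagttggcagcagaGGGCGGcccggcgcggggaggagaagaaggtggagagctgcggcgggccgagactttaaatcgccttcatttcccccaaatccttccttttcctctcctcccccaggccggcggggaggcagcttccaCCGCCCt
Col16a1, chr4:130047590-130047889, plus strand, with a CCAAT box at -113 and GC boxes at -159 and 5: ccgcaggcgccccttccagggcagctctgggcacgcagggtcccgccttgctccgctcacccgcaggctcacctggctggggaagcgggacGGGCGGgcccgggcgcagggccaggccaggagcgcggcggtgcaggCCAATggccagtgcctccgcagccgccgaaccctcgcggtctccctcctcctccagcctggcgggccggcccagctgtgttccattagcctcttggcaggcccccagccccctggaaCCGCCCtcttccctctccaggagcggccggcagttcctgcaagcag
Col7a1, chr9:108953336-108953635, plus strand, with a CCAAT box at -249, a GC box at -61 and a SMAD motif at -181: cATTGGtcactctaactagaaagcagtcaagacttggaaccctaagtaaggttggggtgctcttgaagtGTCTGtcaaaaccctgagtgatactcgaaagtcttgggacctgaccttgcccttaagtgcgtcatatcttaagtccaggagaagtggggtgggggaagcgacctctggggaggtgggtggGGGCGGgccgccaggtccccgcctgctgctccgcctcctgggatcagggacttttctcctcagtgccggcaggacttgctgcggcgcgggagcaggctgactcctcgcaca
Col5a1, chr2:27886175-27886474, plus strand, with GC boxes at -205 and -73 and a SMAD motif at -35: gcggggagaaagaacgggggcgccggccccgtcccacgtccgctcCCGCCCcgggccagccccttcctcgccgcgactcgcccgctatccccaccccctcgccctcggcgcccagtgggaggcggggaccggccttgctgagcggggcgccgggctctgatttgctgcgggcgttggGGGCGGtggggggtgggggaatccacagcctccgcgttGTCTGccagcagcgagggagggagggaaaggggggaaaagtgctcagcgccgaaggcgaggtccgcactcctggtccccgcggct
Col6a1, chr10:76725995-76726294, minus strand, with an AP-1 motif at -90: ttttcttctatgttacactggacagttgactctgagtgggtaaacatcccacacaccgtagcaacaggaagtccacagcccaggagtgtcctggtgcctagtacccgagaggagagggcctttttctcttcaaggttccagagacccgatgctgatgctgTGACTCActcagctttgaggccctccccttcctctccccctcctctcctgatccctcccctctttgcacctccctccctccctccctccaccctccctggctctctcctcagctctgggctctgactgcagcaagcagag
Positions count the first base of a match from the start site. All 4 windows of the members that rose hold at least 1 GC box, as do 10 of the 13 windows of the tested members, among them Col8a1, which was not called, and 1 of the 2 windows of Col18a1, which fell. The AP-1 motif was found in the window of Col6a1 and in 0 of the other 12. A motif match is a description of the letters and not a binding site. The GC content was 61.7% for Col27a1, 74.3% for Col16a1, 58.7% for Col7a1, 75% for Col5a1 and 57.3% for Col6a1, against a median of 52.7% over all windows (quartiles 45.7% and 61.7%). The RefSeq starts of Col27a1 and Col6a1 lie inside the genes as deposited, downstream of their first bases.

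Of the 38 collagen genes, 16 passed the filter on low counts, 22 did not, and 8 had 0 counts in all 4 libraries. Between 24 and 26 of the 38 had at least 1 count in a library. After IL-12, 7 of the 16 tested genes rose, namely Col27a1, Col16a1, Col7a1, Col1a1, Col12a1, Col5a1 and Col5a2. Col6a1 and Col18a1 fell, and the other 7 were not called. The 7 that rose are 43.8% of the members tested, where 16.1% of all genes tested were called higher, and the 2 that fell are 12.5%, where 14.4% of all genes were called lower. All of these shares are taken over genes that passed the same filter. They describe the list and are no test of it. With the libraries scaled to their total counts alone, the share of higher genes among all genes called was 40.5% in place of 52.8%, and 6 members were called higher and 2 lower.

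Of these, 3 members (18.8% of those tested) rose by more than 2-fold, the limit used by the study together with the adjusted p, and 0 members fell by more than 2-fold. Over all genes tested, 0.858% passed this rule in the higher direction and 0.752% in the lower direction. Both IL-12 libraries lay above both control libraries for 7 of the 16 members and below both for 3, against 31.7% and 31.2% of all genes. The 7 members above are the same 7 that were called higher. The median log2 fold change was 0.05 over the 16 members and -0.002 over all genes tested. Because these are bulk libraries, fewer cells of a type and less RNA per cell cannot be told apart.

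**Figure D1:**
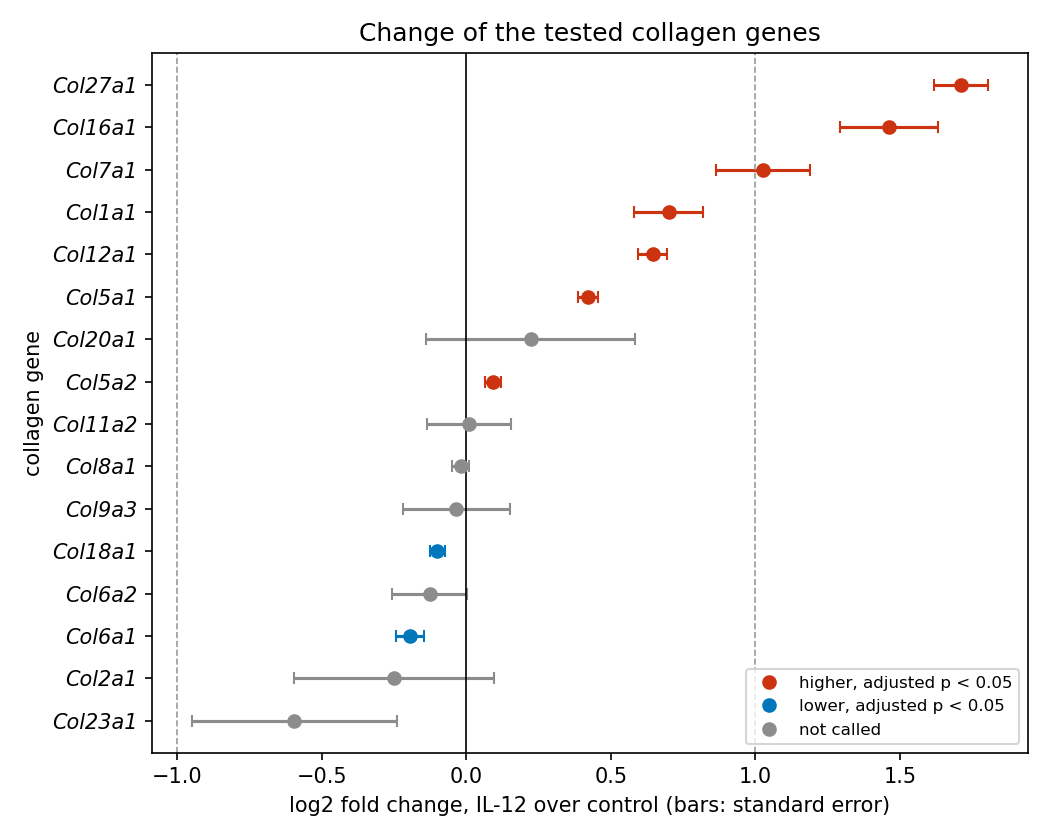
Log2 fold change of IL-12 over control for the 16 tested collagen genes, with bars of 1 standard error to each side and dashed lines at a 2-fold change. Red points were called higher, blue points lower and grey points were not called at an adjusted p below 0.05. Col27a1 was at 1.71 and Col16a1 at 1.46, and Col7a1 at 1.03 lay within its standard error of the dashed line.

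The fibrillar collagens were the class with the most members, 11 in all, of which 6 were tested, 4 rose and 0 fell. Col27a1 encodes the chain of type XXVII collagen, a fibrillar collagen with a short helix that is best known from cartilage. The gene lies on chromosome 4 from 63214004 to 63334991, plus strand. Under saline its 2 libraries held 286 and 225 counts, under IL-12 they held 891 and 786. The lowest IL-12 count was well above the highest control count, and the groups did not overlap. The mean level was 13.5 ± 2.25 CPM for control and 44.2 ± 1.13 CPM for IL-12 (SD, n = 2 each). On the log2 scale it rose by 1.71 (standard error 0.09, edgeR adjusted p = 1.09e-10), or 3.27-fold, the largest change among the 16 tested members. The miRNA gene Mir455, which lies within Col27a1 on the same strand, had 0 counts.

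Col5a1 and Col5a2 encode the chains of type V collagen, which nucleates type I fibrils and limits their diameter. Col5a1, on chromosome 2 from 27886425 to 28039514 (plus strand), had 4296 and 4372 control counts and 6196 and 5436 IL-12 counts. The groups were separate, with means of 229 ± 3.45 and 307 ± 9.0 CPM (SD, n = 2 each). It rose by 0.42 on the log2 scale (standard error 0.04, edgeR adjusted p = 3.62e-08), or 1.34-fold. The noncoding genes Gm13372 and 2810430I11Rik overlap Col5a1 on the opposite strand and had 133 and 83 counts in all 4 libraries together, against 20300 for Col5a1.

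Col5a2 lies on chromosome 1 from 45374321 to 45503282 (minus strand). It had 11482 and 11190 control counts and 12684 and 11533 IL-12 counts, or 600 ± 9.32 CPM and 639 ± 2.60 CPM (SD, n = 2 each). Both IL-12 libraries lay above both control libraries, but the change was small, 1.07-fold. The log2 fold change of 0.09 (standard error 0.03) had an adjusted p of 0.0165 in edgeR. This call was lost with total counts as the scale (log2 fold change 0.05, adjusted p = 0.181), without control replicate 2 (adjusted p = 0.156), without IL-12 replicate 1 (adjusted p = 0.0852) and without IL-12 replicate 2 (adjusted p = 0.0502), by the same edgeR test.

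The ratio of Col5a1 to Col5a2, each as counts per kilobase of the deposited gene length, was 0.423 and 0.441 under saline and 0.552 and 0.532 under IL-12. The ratio was thus higher in both IL-12 libraries, with means of 0.432 ± 0.0132 and 0.542 ± 0.0137 (SD, n = 2 each), and this ratio within a library does not depend on the scaling between libraries. The log2 change of the ratio was 0.33. No p-value is given for it, since the exact test of 2 against 2 libraries cannot pass 0.05. The third chain of the type, Col5a3, had 8, 8, 8 and 5 counts and was not tested.

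Col1a1 encodes the α1 chain of type I collagen, the main collagen of fibrous tissue, and lies on chromosome 11 from 94936224 to 94953042 (plus strand). Its counts were 197 and 162 under saline and 299 and 285 under IL-12, without overlap. Mean levels were 9.49 ± 1.28 and 15.4 ± 0.452 CPM (SD, n = 2 each), so that it rose by 0.70 on the log2 scale (standard error 0.12, edgeR adjusted p = 0.000167), or 1.62-fold. The partner chain Col1a2, which makes up the usual type I trimer with Col1a1, was almost without reads, with 1 and 0 control counts and 4 and 0 IL-12 counts. The counts of Col3a1, the fibrillar collagen most often found beside type I, were 3 and 0 for control and 4 and 4 for IL-12. No ratio of Col1a1 to Col1a2 can be given at these counts.

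Col11a2 and Col2a1 were tested and not called. Col11a2, a chain of the cartilage collagen type XI, had 171 and 144 control counts and 152 and 165 IL-12 counts, and the groups overlapped (log2 fold change 0.01, 95% interval -0.27 to 0.29, from the standard error with a normal approximation). Its partner Col11a1 had 0 to 4 counts. Col2a1, the main fibrillar collagen of cartilage, had 32 and 24 control counts and 21 and 26 IL-12 counts, which also overlapped (log2 fold change -0.25, 95% interval -0.93 to 0.43). Col24a1, the closest relative of Col27a1, had 0 and 1 control counts and 5 and 3 IL-12 counts and was not tested.

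Among the 9 fibril-associated collagens, 4 were tested, 2 rose and 0 fell. Col12a1 encodes type XII collagen, which links fibrils to other matrix proteins, and lies on chromosome 9 from 79598991 to 79718831 (minus strand). It had 1399 and 1383 control counts and 2202 and 2149 IL-12 counts, so that the replicates were close to each other and the groups far apart. In CPM this was 73.6 ± 0.403 and 115 ± 5.29 (SD, n = 2 each), 1.56-fold, and the gene rose by 0.64 on the log2 scale (standard error 0.05, edgeR adjusted p = 1.06e-08). An annotated antisense gene within it, 4930562D21Rik, had 0 counts.

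Col16a1 encodes type XVI collagen, which occurs in small amounts beside fibrils and basement membranes. The gene lies on chromosome 4 from 130047840 to 130099283 (plus strand), on the same chromosome as Col27a1. Its reads numbered 70 and 54 under saline and 184 and 159 under IL-12. Both IL-12 values lay far above both control values, at 9.05 ± 0.362 CPM against 3.28 ± 0.590 CPM (SD, n = 2 each). It rose by 1.46 on the log2 scale (standard error 0.17, edgeR adjusted p = 2.14e-06), or 2.76-fold.

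The 2 further genes of the class that were tested did not pass. Col9a3, a chain of the cartilage collagen type IX, had 84 and 84 control counts and 79 and 85 IL-12 counts (log2 fold change -0.03, 95% interval -0.40 to 0.33), while Col9a1 and Col9a2, the chains it combines with, had 0 counts in every library. Col20a1 had 25 and 21 control counts and 35 and 19 IL-12 counts, so that the IL-12 libraries lay on both sides of the control libraries. It overlaps the noncoding gene 9230112E08Rik on the same strand, which had 434 counts in the 4 libraries together against 100 for Col20a1, so its own level is uncertain.

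Col7a1 is the single gene of type VII collagen, the anchoring fibril of skin and other epithelia, and lies on chromosome 9 from 108953586 to 108984875 (plus strand). It had 72 and 78 control counts and 152 and 154 IL-12 counts, with no overlap. The level was 3.97 ± 0.235 CPM and 8.10 ± 0.586 CPM (SD, n = 2 each). Its rise of 1.03 on the log2 scale (standard error 0.16, edgeR adjusted p = 7.11e-05) was 2.04-fold, so close to the 2-fold limit that its place among the 3 members above it depended on the setting. With total counts as the scale it was 0.99, and it lay at 0.97 without control replicate 1 and 0.95 without IL-12 replicate 2, which left 2 members above the limit in each case, while Col7a1 stayed called higher at any fold in all of these. The miRNA gene Mir711, which lies within Col7a1, had 0 counts.

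The beaded filament collagens have 6 genes, of which 2 were tested and 1 fell. Col6a1, on chromosome 10 from 76708792 to 76726168 (minus strand), encodes the α1 chain of type VI collagen. It had 1841 and 1854 control counts and 1731 and 1502 IL-12 counts, or 97.7 ± 0.746 CPM and 85.3 ± 3.17 CPM (SD, n = 2 each). Both IL-12 libraries were below both control libraries, and the log2 fold change was -0.20 (standard error 0.05, edgeR adjusted p = 0.00414), or 0.873-fold. Without IL-12 replicate 2 the call was lost (log2 fold change -0.16, edgeR adjusted p = 0.0622).

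Col6a2, which encodes the α2 chain and lies 85.2 kb from Col6a1 on the same strand, was far lower. It had 217 and 218 control counts and 185 and 213 IL-12 counts, and was not called (log2 fold change -0.13, 95% interval -0.38 to 0.13). The deposited gene lengths are 4380 bases for Col6a1 and 8326 for Col6a2. Per kilobase of these, Col6a1 exceeded Col6a2 by 16.1 and 16.2 times under saline and by 17.8 and 13.4 times under IL-12. The size of this ratio rests in part on the lengths. The spread of the ratio between the IL-12 libraries (15.6 ± 3.10, SD, n = 2) was larger than its difference from the control group (16.1 ± 0.0278, SD, n = 2). The third chain that the type VI trimer needs, Col6a3, had 5 to 8 counts, and its alternatives Col6a4, Col6a5 and Col6a6 had 0.

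Of the short-chain network collagens, Col8a1 alone was tested. It encodes the α1 chain of type VIII collagen, known from the matrix beneath vascular and corneal endothelium and also made in the kidney, and was the most abundant member by reads. It had 18824 and 18552 control counts and 18686 and 18197 IL-12 counts, or 988 ± 7.54 CPM and 975 ± 43.3 CPM (SD, n = 2 each), and the groups overlapped. The log2 fold change was -0.02 with a 95% interval of -0.08 to 0.04 (adjusted p = 0.680 from edgeR). Its partner Col8a2 had 0 counts in every library. Col10a1 had 4 to 9 counts and overlaps Nt5dc1 on the opposite strand, which had 993 counts in all.

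Of the multiplexins, Col18a1 was tested and fell. Type XVIII collagen is a heparan sulfate proteoglycan of basement membranes, and its C-terminal fragment is endostatin. The gene lies on chromosome 10 from 77052178 to 77166548 (minus strand), 326.0 kb from Col6a1 and on the same strand. It had 17289 and 16824 control counts and 16889 and 15007 IL-12 counts. After scaling, both IL-12 libraries (854 and 830 CPM) lay below both control libraries (913 and 891 CPM), with means of 842 ± 17.1 and 902 ± 15 (SD, n = 2 each). It fell by 0.10 on the log2 scale (standard error 0.03, edgeR adjusted p = 0.00906), to a 0.933-fold level. The call was lost without control replicate 1 (adjusted p = 0.117) and without IL-12 replicate 2 (adjusted p = 0.0911). Slc19a1 overlaps it on the opposite strand with 1562 counts against 66009 for Col18a1. The other multiplexin, Col15a1, had 3 and 3 control counts and 0 and 7 IL-12 counts.

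Without IL-12 replicate 2, then, 0 of the 16 members were called lower, and without control replicate 1 only Col6a1 was. Of the transmembrane collagens, Col23a1 was tested, with 28 and 28 control counts and 17 and 20 IL-12 counts. Both IL-12 counts were below both control counts, but the difference, -0.59 on the log2 scale (standard error 0.35, edgeR adjusted p = 0.231), did not pass.

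The members that were not tested had counts at or near the floor in every library. Besides those given above, Col22a1 had 0 to 4 counts, Col17a1 had 1 or 2, Col28a1 and Col14a1 had 0 to 2, and Col13a1 and Col25a1 had 0 or 1. At 0 in all 4 libraries were Col19a1, Col26a1, Col6a4, Col6a5, Col6a6, Col8a2, Col9a1 and Col9a2. For these a difference between the groups was not detectable at this depth.

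**Figure D2:**
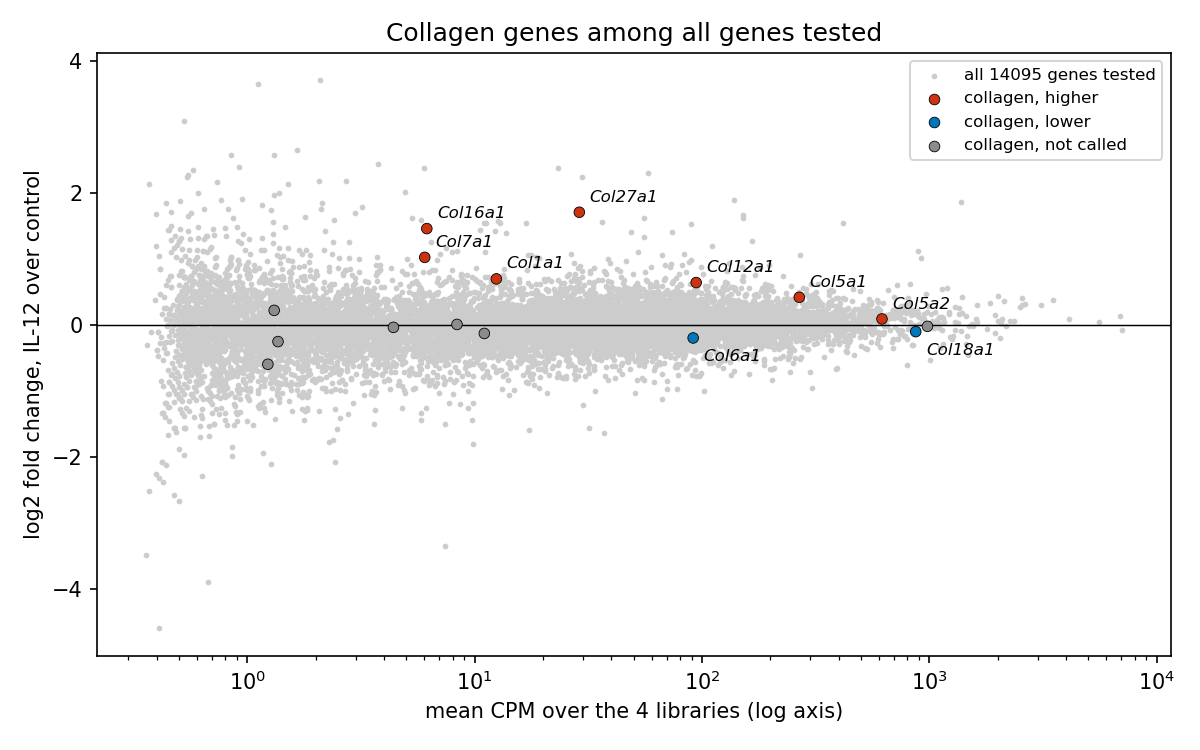
Log2 fold change of IL-12 over control against the mean CPM of the 4 libraries (log axis) for all 14095 genes tested (small grey points), with the 16 collagen genes as large points in red (called higher), blue (called lower) or grey (not called). Col27a1 and Col16a1 lie near the upper edge of genes of their level, whereas Col5a2, Col18a1 and Col8a1, at the right, lie close to 0.

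Compared per kilobase of the deposited gene length, Col8a1 and Col18a1 were highest and could not be ordered. Levels of different genes set side by side in this way depend on that length. Whether it matches the transcripts made in these cells was not tested. As CPM per kilobase, Col8a1 had 126 ± 0.963 for control and 125 ± 5.53 for IL-12, and Col18a1 had 128 ± 2.13 and 120 ± 2.44 (SD, n = 2 each). Next came Col5a2 (62.5 ± 0.972 and 66.7 ± 0.271), Col5a1 (27.0 ± 0.407 and 36.1 ± 1.06) and Col6a1 (22.3 ± 0.170 and 19.5 ± 0.723). In both groups these 3 were apart by more than their spread. Col12a1 followed with 4.83 ± 0.0264 and 7.56 ± 0.347.

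The lower part of this order changed with the treatment. Col1a1 was at 1.45 ± 0.196 CPM per kilobase in the control group and Col6a2 at 1.38 ± 0.00817, within the spread, with Col27a1 lower at 1.04 ± 0.172. In the IL-12 group Col27a1 was at 3.40 ± 0.0865, above Col1a1 at 2.35 ± 0.0689 and Col6a2 at 1.27 ± 0.206. Col16a1 likewise went from 0.486 ± 0.0874, below Col9a3 (1.15 ± 0.00307) and Col11a2 (1.22 ± 0.145), to 1.34 ± 0.0537, where it was within the spread of Col11a2 (1.23 ± 0.149). Col7a1 stayed below these, at 0.386 ± 0.0228 and 0.787 ± 0.0570.

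**Figure D3:**
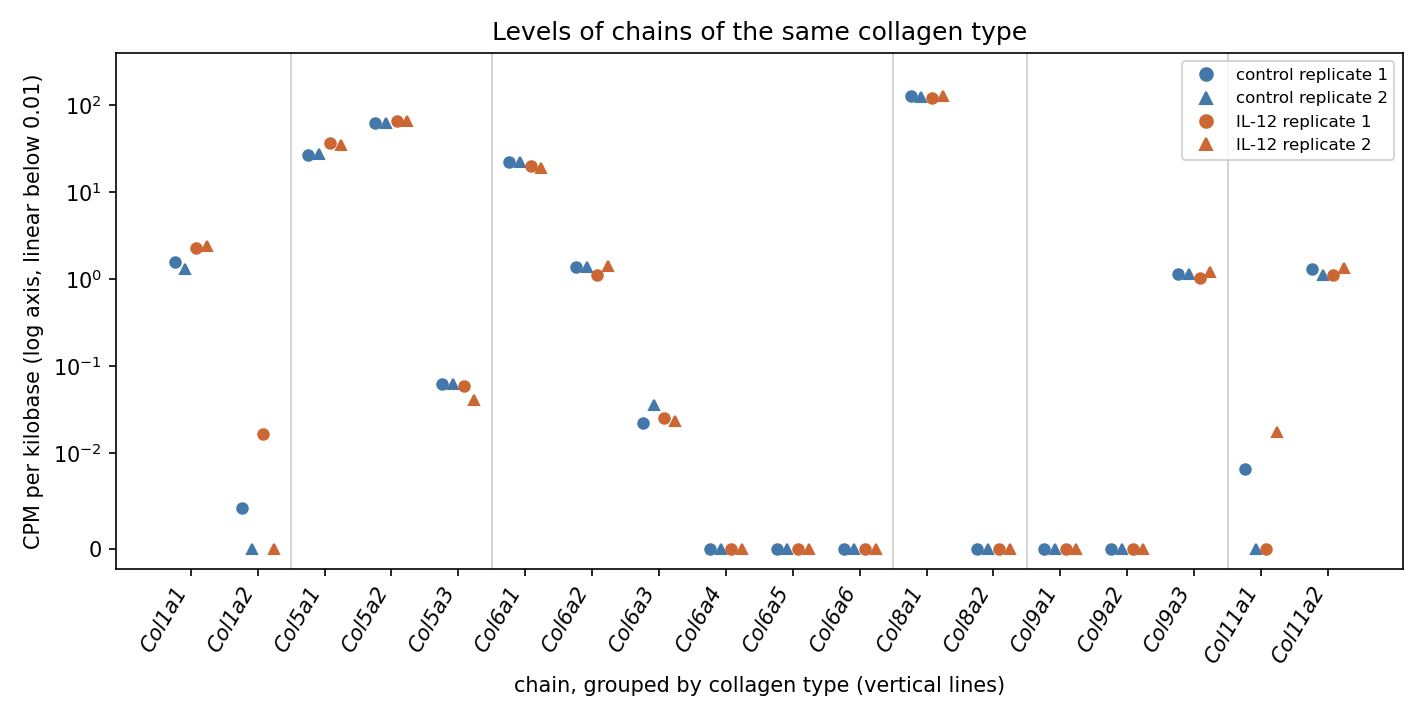
Level of each chain of the collagen types with several chains, in CPM per kilobase (log axis, linear below 0.01), for the 4 libraries, with blue for control, orange for IL-12, circles for replicate 1 and triangles for replicate 2. Col1a1, Col5a1, Col5a2, Col6a1, Col6a2, Col8a1, Col9a3 and Col11a2 have levels above 1 while at least 1 other chain of their type lies at or near 0. Col5a1 and Col5a2 are both well above 10, with Col5a3 near 0.

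The summed level of the 38 genes was 2974 and 2927 CPM under saline and 3055 and 3083 CPM under IL-12. The means, 2951 ± 33.4 and 3069 ± 19.5 (SD, n = 2 each), differ by 0.06 on the log2 scale, with total counts as the scale by 0.02. As shares of the total counts the groups overlapped, with 0.302% and 0.296% under saline and 0.301% and 0.304% under IL-12, so the sum was higher in both IL-12 libraries with the TMM scale and not with total counts. Most of it came from Col8a1, Col18a1 and Col5a2.

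Within the summed CPM per kilobase, the fibrillar class held 24.7% and 24.6% under saline and 28.8% and 28.2% under IL-12. The fibril-associated class went from 1.79% and 1.76% to 2.62% and 2.71%, and the anchoring fibril gene Col7a1 from 0.0966% and 0.107% to 0.194% and 0.213%. All 3 shares were higher in both IL-12 libraries. The multiplexins took 34.0% and 33.7% under saline and 31.6% and 30.5% under IL-12, and the beaded filament class 6.17% and 6.34% against 5.48% and 5.26%, both lower. The short-chain network share, 33.2% and 33.4% against 31.3% and 33.1%, was also lower in both IL-12 libraries, though only slightly in replicate 2. So was the transmembrane share, which rests on few counts (0.0698% and 0.0722% against 0.0412% and 0.0577%). Shares within a library sum to a fixed total, so a higher share of one class lowers the others.

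**Figure D4:**
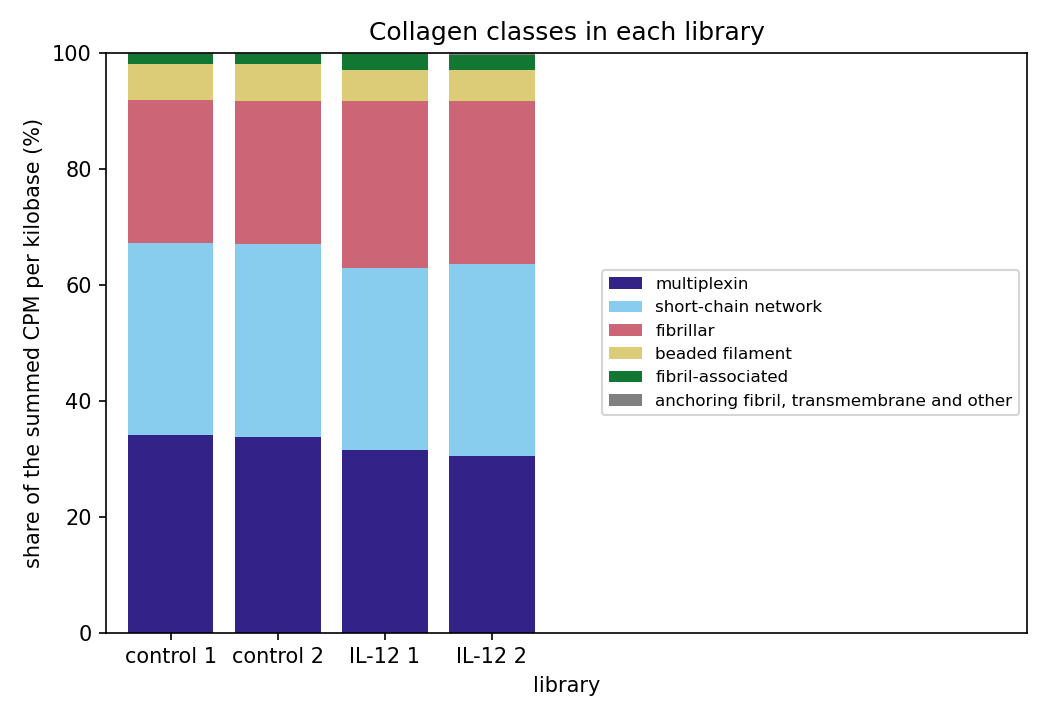
Share of each collagen class in the summed CPM per kilobase of the 38 genes, in percent, for the 4 libraries. In both groups most of the level is multiplexin, short-chain network and fibrillar, and the fibrillar share is 24.7% and 24.6% for control and 28.8% and 28.2% for IL-12.

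Genes that make, assemble, bind and degrade collagens were read from the same edgeR fit, with the adjusted p over all genes. Over all genes tested, 16.1% were called higher and 14.4% lower. The counts of each list below, those of cell type markers included, are to be read beside these shares and are no test of the lists. Of 20 genes of procollagen folding and modification, 18 were tested, 8 rose and 3 fell (median log2 fold change 0.10). Those with the smallest p among the genes that rose were Colgalt1, which attaches galactose to hydroxylysine (0.26), P4hb, a subunit of prolyl 4-hydroxylase (0.15), and the lysyl hydroxylase Plod2 (0.16), all log2 fold changes. The 3 that fell were all prolyl hydroxylases. P3h2, a prolyl 3-hydroxylase, had 1844 and 1677 control counts and 895 and 894 IL-12 counts (log2 fold change -0.98, standard error 0.06, edgeR adjusted p = 5.14e-10), and P4ha2 (-0.37) and P4ha1 (-0.15) fell less.

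Of 15 genes of propeptide removal and crosslinking, 9 were tested, 3 rose and 1 fell (median log2 fold change 0.08). Lox, the lysyl oxidase that starts crosslinking, had 133 and 136 control counts and 226 and 185 IL-12 counts (log2 fold change 0.61, standard error 0.13, edgeR adjusted p = 0.00168). The procollagen C-proteinase gene Tll1 had 6 and 0 counts against 46 and 33, where the fold change depends on the few control counts. Of the C-proteinase enhancers, Pcolce2 rose (log2 fold change 0.76) and the far more abundant Pcolce fell (-0.21, edgeR adjusted p = 4.82e-05).

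Of 10 collagen receptor genes, 5 were tested, 1 rose and 3 fell (median log2 fold change -0.67). Itgb1, the β1 integrin that pairs with all collagen-binding α chains, rose by 0.41 on the log2 scale (edgeR adjusted p = 9.98e-11). Itga1, one of these α chains, fell by 0.77 (edgeR adjusted p = 6.66e-09), and Ddr1, a collagen-activated receptor tyrosine kinase, had 8878 and 9112 control counts and 5885 and 5410 IL-12 counts (log2 fold change -0.67, edgeR adjusted p = 1.51e-11). Mrc2, the endocytic collagen receptor, was at 20 and 28 counts against 6 and 13 (-1.32, edgeR adjusted p = 0.0363).

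Of 15 genes of proteoglycans and glycoproteins that bind fibrils, 7 were tested. Fn1 (fibronectin, log2 fold change 0.38), Thbs1 (thrombospondin 1, 0.14) and Postn (periostin, 0.77) rose, and the small leucine-rich proteoglycans Ogn (-0.77) and Fmod (-0.46) fell, with a list median of 0.14. Of 13 genes of collagen cleavage, 7 were tested, 3 rose and 0 fell, with a median of 0.06. These were the gelatinase Mmp9, with 106 and 109 control counts and 327 and 259 IL-12 counts (log2 fold change 1.44), and 2 inhibitors of metalloproteinases, Timp1 (0.82) and Timp3 (0.21). Of the 6 type IV chains, 4 rose and 2 fell, with log2 fold changes of 0.24 for Col4a1, 0.16 for Col4a2, 1.57 for Col4a3, 1.56 for Col4a4, -0.31 for Col4a5 and -0.91 for Col4a6.

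Markers of other cell types were read beside these results, since fibrillar collagens are also made by stromal cells. Of 8 mesangial or stromal markers, 3 were tested and 2 rose, Pdgfrb (log2 fold change 0.23) and Acta2 (0.14), and the summed level was 191 and 192 CPM under saline and 212 and 218 CPM under IL-12. Pdgfrb had 989 to 1208 counts and Acta2 had 2558 to 2998. Thy1 and Lum of the same list were at 0 in every library, and Dcn and Pdgfra had 0 to 3 counts. Lum and Dcn are also in the list of fibril-binding genes. Of the podocyte markers, 8 of 14 were tested, 4 rose, among them Nes (1.02), Podxl (0.33) and Actn4 (0.17), and Synpo fell (-0.66). Their sum was 3470 and 3453 CPM under saline against 4053 and 4043 CPM under IL-12. Nes alone went from 609 and 603 CPM to 1228 and 1237 CPM, a larger rise than that of the sum.

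Of 6 endothelial markers 1 was tested and not called, with sums of 10.7 and 10.6 CPM against 8.80 and 8.84 CPM, Emcn at 0 and Pecam1 and Cdh5 at 0 to 5 counts. Of 6 tubular markers 2 were tested and Lrp2 fell (-0.27), with sums of 661 and 635 CPM against 519 and 560 CPM and Slc34a1 and Umod at 0. Of 6 leukocyte markers 1 was tested and not called, with sums of 5.17 and 6.15 CPM against 5.06 and 7.30 CPM, and Adgre1 and Cd3e were at 0. The part of the stromal and podocyte markers in the change of the collagen genes was not tested.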

How the data were processed

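Counts and FPKM values were taken for 2 control and 2 IL-12 libraries of mouse podocytes, grouped by the sample labels. The authors deposited raw counts per gene, whole numbers without normalization. The FPKM values that the authors deposited equal the count per kilobase times 1 factor per library (0.985, 0.989, 1.02 and 1.02), so they hold no further information. The submitters' processing notes name HISAT2, StringTie and the build mm9, without versions of the tools. The deposited coordinates equal those of GENCODE M21 (GRCm38) for 98.3% of 54409 shared genes and for 38 of 38 members, and GRCm38 is used here. How reads that match several genes were treated, and whether strand was used, is not given in the sources used here.

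The differential test was edgeR 4.0.16 in R 4.3.3 (filterByExpr with a minimum of 10 counts and 15 in total, TMM scaling, quasi-likelihood test, 14095 genes), with standard errors derived from the log2 fold change and its F statistic. DESeq2 1.42.0 and limma 3.58.1 served as alternatives, beside other scalings and filters, a stricter threshold, the replicate number as a block and each library left out. Depth was 18355379 to 20098012 counts per library. All members are named. Of the other lists, the text names at most the 3 called genes with the smallest p in each direction. All 6 type IV chains and some cell type markers at or near 0 are named as well. The members and lists were chosen with earlier results of these data known. Promoter sequences are from RefSeq. The level of 1 gene of the podocyte marker list is not reported here.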

Additional observations from a re-analysis of the deposited data

How the results depend on the processing

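The calls of the 7 members that rose held under the DESeq2 size factors, upper-quartile scaling, the DESeq2 Wald test, limma voom, no filter and a filter of 10 counts in every library, and the 2 that fell held there too. DESeq2 gave an adjusted p for 13 of the 16 members. At an adjusted p below 0.01, 6 were higher and 2 lower. Leaving out each library in turn gave 6 to 7 members higher, 0 to 2 lower (0 without IL-12 replicate 2, 1 without control replicate 1) and 2 to 3 over 2-fold. Over all genes it gave 1404 to 2010 higher, 1124 to 1712 lower and 144 to 254 over 2-fold in either direction, where the full set gave 2267, 2030 and 227. The lowest of each came without IL-12 replicate 1. The DESeq2 Wald test called 1492 genes higher, 1213 lower and 103 over 2-fold. The log2 change of the summed level, 0.057, was 0.016 with total counts and 0.045 to 0.068 with a library left out. The sum of the deposited FPKM changed by 0.029, but it divides each gene by its length and so is another quantity than the summed CPM. Signs changed only for members that were not called. Col11a2 was at -0.00598 with upper-quartile scaling and at -0.0314 with total counts, and with a library left out it ranged from -0.12 to 0.14, Col20a1 from -0.21 to 0.54, Col6a2 from -0.297 to 0.0348, Col8a1 from -0.0643 to 0.0265 and Col9a3 from -0.152 to 0.0819. The cause was not tested. The groups share the replicate numbers 1 and 2, but same-numbered libraries did not deviate together over all genes (r = -0.03 over 14095 genes). This single correlation over genes of all levels cannot settle whether same-numbered libraries share a culture or batch, which the sources do not say. The fit with the replicate block called 7 members higher and 2 lower, and 2272 genes higher, 2069 lower and 241 over 2-fold. The 22 untested members had too few counts to pass the filter, and whether more depth would change this was not tested.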
